A study of Mus musculus with 6 samples.

Results

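H3K27ac peaks named for the genes of collagens, laminins, fibrillins and fibronectin were examined in mouse quadriceps. Members were the rows of the control and detrained peak tables whose gene name matched a pattern for collagen chains, laminin chains, Fbn1, Fbn2 or Fn1. This gave 257 of 46988 control peaks and 227 of 40721 detrained peaks, 484 of 87709 in all, carrying 49 gene names. One of these names, Col4a3bp, matched by its letters alone. It encodes a ceramide transport protein, so its 2 control peaks and 1 detrained peak are not matrix peaks, and they are kept in the counts of members except where the text says matrix genes.

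By the labels, the control group was sedentary wild type C57BL/6 mice, and the detrained group was wild type C57BL/6 mice that had run on wheels for 4 weeks and were then rested for 72 hours. By the study's methods the mice were male C57BL/6J, got or did not get wheels at 8 weeks of age, and gave 1 quadriceps each to a library. Each group had 2 H3K27ac libraries, called C2 and C3 for the control group and Ex1 and Ex2 for the detrained group, and 1 input library of sheared chromatin without enrichment. The strain field of the inputs reads C57BL/7 in the control group and C57BL/8 in the detrained group. The H3K27ac libraries held 20805019 to 22400894 tags, and the inputs 10812470 and 21298438. A tag is 1 aligned read start, and peaks were called on the pooled tags of a group against its own input.

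Acetylation of lysine 27 on histone H3 marks active promoters and enhancers, and a peak is a stretch of the genome where the mark is enriched. In muscle, the fibrillar collagens form the tension-bearing fibrils of the connective tissue, while collagen IV and the laminins form the basement membrane that wraps each fibre and capillary. These proteins are made largely by fibroblasts, endothelial cells and muscle fibres, and whole muscle holds the chromatin of all of them. In such tissue, fewer cells of a type and less acetylation per cell cannot be told apart.

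Among the genes that mark muscle fibres, 4 of 5 had peaks in each table, at 64.6 pooled tags per kb of peak in the control group and 70.2 in the detrained group. All 5 fibroblast and all 4 endothelial marker genes had peaks as well. No peak was named for the 2 adipocyte markers. Of the 3 immune markers, 1 had a peak in the control table and 2 had a peak in the detrained table.

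Stretches of 200 bases are given here for 3 start sites that lay inside a peak in both groups and for the 2 shared peaks with the largest differences between groups, to show what kind of sequence carried the mark. The start sites belong to Col1a2, Col3a1 and Col6a1, which encode a chain each of collagens I, III and VI, and each stretch ends at the base before the start, on the strand of the gene (RefSeq, GRCm38.p6). The last 2 stretches are the centres of the regions common to both groups in a Col18a1 intron and a Col13a1 intron, on the plus strand. None of the 5 overlapped a RefSeq exon. Capitals mark motif matches on either strand. The search was for the TATA box as TATAAA, which lies close to the start of many regulated genes. It was also for the promoter motif known by its letters CCAAT, for the GC box bound by Sp factors as GGGCGG, and for the motif of AP-1 factors as TGANTCA. A match is a description of these letters only.
Col1a2, chr6:4505418-4505617, plus strand: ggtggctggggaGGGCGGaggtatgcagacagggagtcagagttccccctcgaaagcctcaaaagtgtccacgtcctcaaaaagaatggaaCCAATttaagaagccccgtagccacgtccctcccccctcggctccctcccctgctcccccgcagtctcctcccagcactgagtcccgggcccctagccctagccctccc
Col3a1, chr1:45311338-45311537, plus strand: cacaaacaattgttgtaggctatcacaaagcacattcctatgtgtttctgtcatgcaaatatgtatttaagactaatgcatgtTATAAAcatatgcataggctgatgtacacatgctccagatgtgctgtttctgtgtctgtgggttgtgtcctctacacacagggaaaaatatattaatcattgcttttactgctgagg
Col6a1, chr10:76726045-76726244, minus strand: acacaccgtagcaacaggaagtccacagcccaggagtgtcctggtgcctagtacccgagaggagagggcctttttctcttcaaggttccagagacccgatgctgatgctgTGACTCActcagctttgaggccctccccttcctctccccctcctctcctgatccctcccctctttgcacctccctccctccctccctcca
Col18a1 peak, chr10:77121386-77121585: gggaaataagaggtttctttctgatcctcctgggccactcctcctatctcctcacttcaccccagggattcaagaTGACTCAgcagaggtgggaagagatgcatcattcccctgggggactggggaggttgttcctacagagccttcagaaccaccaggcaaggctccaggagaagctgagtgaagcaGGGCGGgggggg
Col13a1 peak, chr10:61898287-61898486: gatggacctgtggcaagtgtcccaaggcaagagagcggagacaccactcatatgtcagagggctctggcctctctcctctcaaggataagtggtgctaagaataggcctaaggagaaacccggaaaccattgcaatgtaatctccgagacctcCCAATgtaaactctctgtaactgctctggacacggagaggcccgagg

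The Col3a1 stretch was poor in G and C (37.5%) and held 1 TATAAA match, near the middle of the stretch and not at its end by the start. The Col1a2 stretch (63.5% G and C) held 1 GGGCGG and 1 CCAAT match. The Col6a1 stretch held 1 TGANTCA match, the letters bound by AP-1 factors. RefSeq promoter windows were found for 41 gene names that match the pattern, with or without a peak, 45 windows in all. Some marked genes had no window, among them Col1a1, Fn1, Lamc1 and Lama4. GGGCGG, the GC box, stood in the last 200 bases before the start in 25 of these 45 windows (55.6%), against 31.0% of all 32851 windows. TATAAA was found in 8.89% against 9.96% and CCAAT in 24.4% against 29.3%. TGANTCA was found in 1 of the 45, or 2.22% against 5.48%. At the centres of the 133 shared member peaks, described below, GGGCGG was found in 5.26% against 17.7% of all 26432 shared peaks, and TGANTCA in 9.02% against 6.64%. The median share of G and C was 60.5% in the 45 windows against 53% over all windows, and 48% at the centres of shared member peaks against 51% over all.

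The matrix genes were marked mostly away from their start sites. Of the control member peaks, 158 (61.5%, against 50.8% of all control peaks) lay in introns and 79 (30.7%, against 30.7% of all) between genes. Another 7 (2.72%) were annotated as promoter peaks, against 11.2% of all control peaks. Of the 227 detrained member peaks, 6 (2.64%) were promoter peaks, against 12.6% of all. The median distance from a member peak to the nearest start site was 30.5 kb in the control group and 26.7 kb in the detrained group, against 16.3 kb and 14.98 kb over all peaks. Member peaks held 34.5 pooled tags per kb in the control table and 34.2 in the detrained table, against 46.1 and 45.7 over all peaks. The same peaks stood above their input by a median of 4.62-fold in the control group and 4.39-fold in the detrained group.

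The pattern matched 58 RefSeq protein-coding matrix genes, of which 40 had a peak in both tables, 6 in the control table only and 2 in the detrained table only. The other 10 had none. These were Col2a1, Col9a1, Col9a2, Col9a3 and Col11a1, known as cartilage collagens, along with Col6a4, Col20a1, Col25a1, Fbn2 and Lama1. The 6 genes with a control peak only were Col4a5, Col10a1, Col17a1, Col19a1, Col26a1 and Lama3, and the 2 with a detrained peak only were Col6a5 and Col22a1. The peak of Col4a5, a minor collagen IV chain, held 15.2 pooled tags per 10000000, that of Col22a1 51.4 and that of Col6a5 12.

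Peaks were concentrated on a few genes. Col5a1 had 16 control and 10 detrained peaks, Lamc1 15 and 17, Col3a1 15 and 12, and Fbn1 15 and 13. Col1a2 had 7 control and 11 detrained peaks, while Fn1, which encodes fibronectin, and Lamb2, a laminin chain of the muscle basement membrane, had 1 peak in each table. More peaks were listed in the control table for 24 of the 48 matrix genes with any peak, and in the detrained table for 13, with 11 equal. Over all genes the control table also listed more peaks.

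**Figure D1:**
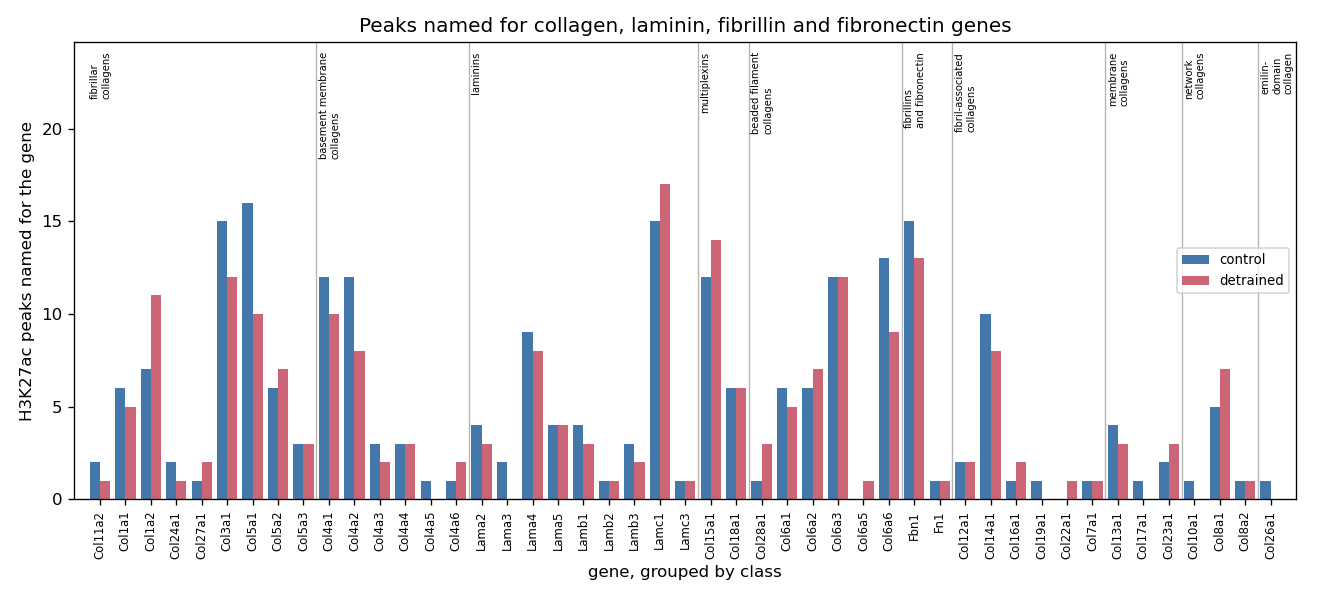
Number of H3K27ac peaks (vertical axis) named for matrix genes with a peak in either table (horizontal axis), grouped by class, for the control and the detrained table. Col5a1 has 16 control peaks and Lamc1 17 detrained peaks, and Col4a5, Col10a1, Col17a1, Col19a1, Col26a1 and Lama3 have no detrained bar.

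A peak was named for the gene with the nearest start site, and it did not always lie in that gene. The centre lay within the named gene for 140 of 257 control peaks (54.5%), within another member gene for 28 (10.9%), within some other protein-coding gene for 8 (3.11%) and in no protein-coding gene for 81 (31.5%). Col4a1 and Col4a2, which encode the main chains of collagen IV, run in opposite directions from start sites 21 bases apart on chromosome 8. All 12 control peaks named Col4a1 lay inside Col4a2, and 10 of the 12 named Col4a2 lay inside Col4a1. For Col14a1, 3 of 10 control peaks lay in Deptor. Peaks of Col4a1 and Col4a2 are therefore described together below.

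The strongest member peaks are given here by pooled tags, an order that favours long peaks. The one with the most tags in both tables carried the name Col4a1 and lay in an intron of Col4a2, at chr8:11364687-11387853 in the control table (23166 bp, 772 pooled tags per 10000000) and at chr8:11364993-11390620 in the detrained table (25627 bp, 846.2). Among the other strong peaks were those over the start sites of Lamc1 (574.7 control, 559.1 detrained) and Col6a3 (567.5 and 472.7) and a peak named Col4a2 inside Col4a1 (561.3 and 612.4). Lamc1 encodes the gamma chain shared by most laminins, and Col6a3 the large chain of collagen VI. The densities of the 2 Lamc1 start peaks were 73.6 and 74.1 pooled tags per kb, with 9.36 and 9.50 tags per kb in the inputs.

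Start sites of matrix genes lay in a peak about as often as those of other genes. This was so for 28 of 58 matrix genes in the control group (48.3%), where 52.7% of all protein-coding start sites lay in a peak, and for 29 of 58 (50%) in the detrained group, where 52.5% did. The start was covered in both groups for 25 genes. It was covered in the control group only for Col4a3, Col4a4 and Col4a5, the minor collagen IV chains, and in the detrained group only for Col8a1, Col11a2, Col23a1 and Col27a1. The start-site peak of Col4a3 and Col4a4 (52.9 pooled tags per 10000000 in the control table) held 32.3 tags per kb in C2 and 29.6 in C3.

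Among the fibrillar collagens, start-site differences at several genes depended on whether tags were counted per kb or per peak. Here and below, density is the estimated tags of 1 library per kb of peak per 10000000 tags of that library. Col1a1, a chain of collagen I, had a density of 35.5 and 34.9 in the control libraries (C2, then C3) and of 40.1 and 36.1 in the detrained libraries (Ex1, then Ex2), the order used from here on. Col1a2, the other chain, stood at 39.3, 36.4, 46.2 and 44.2. Both detrained libraries lay above both control libraries at each of these genes, by a mean log2 difference of 0.11 at Col1a1 and 0.26 at Col1a2. Col3a1, the collagen of fine reticular fibrils, stood at 54.6, 53.2, 55.8 and 53.1, and its groups overlapped in density. Its start peak was longer in the detrained table (9353 bp against 6579 bp), and in tags per peak the difference was 0.52, from 354.3 pooled tags per 10000000 in the control group to 508.4 in the detrained group. Col5a1, which starts collagen fibrils, stood at 48.5, 49.2, 45.4 and 46.8, lower in both detrained libraries by a mean difference of -0.08, or 0.06 in tags per peak. The Col5a2 libraries overlapped, at 57.9, 53.9, 47.8 and 56.6, and so did those of Col5a3, which ran from 24.9 to 29.6. In tags per peak the differences were 0.20 at Col5a2 and 0.27 at Col5a3.

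Among the basement membrane genes, the start sites differed more between libraries of 1 group. The peak over both the Col4a1 and Col4a2 starts had densities of 55.7, 55.9, 64.6 and 51.6, so the detrained libraries lay on either side of the control libraries. Lama4, the laminin alpha chain of blood vessels, stood at 43.5, 41.0, 63.3 and 49.6. Both detrained libraries were above both control libraries there, by a mean log2 difference of 0.41. In tags per peak the Lama4 difference was -0.08, and the peak spanned 8196 bp in the control table and 5835 bp in the detrained table. Lama2, the alpha chain of the muscle fibre basement membrane, stood at 46.7, 43.9, 43.4 and 50.9, and its groups overlapped, with a difference of 0.05 per kb and -0.23 in tags per peak. The groups also overlapped at Lamc1 (70.9, 76.4, 77.2 and 71.3) and at Lamb2 (63.7, 68.9, 65.6 and 61.5). Lama5, another vascular laminin chain, ran from 32.1 in C2 to 41.7 in C3 and from 29.6 in Ex2 to 38.7 in Ex1, a spread within each group that was wider than the difference between them. The Lamb1 start was covered by a peak of 3134 bp in the control table and 1583 bp in the detrained table, which did not meet the overlap needed for a shared peak.

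Col15a1 and Col18a1 encode collagens that bear sugar chains at the edge of basement membranes. At the Col15a1 start, density was 29.7, 25.4, 39.0 and 36.0. The groups did not overlap and the mean log2 difference was 0.45, the highest of the 23 shared peaks over matrix start sites. The detrained peak was shorter (4374 bp against 6489 bp), and in tags per peak the difference was -0.12. At the Col18a1 start the libraries overlapped, at 25.6, 25.9, 27.7 and 20.3.

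The start sites of the microfibril genes differed in direction. Fbn1, which encodes the fibrillin of elastic microfibrils, stood at 46.3, 41.6, 57.5 and 58.7, higher in both detrained libraries by a mean log2 difference of 0.41, or 0.08 in tags per peak. Col6a3 stood at 62.4, 55.2, 48.9 and 49.4, lower in both detrained libraries by -0.26 per kb and by the same in tags per peak. Col6a1 stood at 47.9, 47.6, 48.9 and 50.1, with a difference of 0.05, and the Col6a2 libraries overlapped between 34.8 and 36.0, with a difference of -0.36 in tags per peak. The Fn1 libraries overlapped, at 28.9, 29.6, 30.0 and 26.8. The Fn1 difference was -0.05 per kb and 0.45 in tags per peak, at a peak of 3629 bp in the control table and 5113 bp in the detrained table. Among the fibril-associated collagens, which sit on the surface of fibrils, Col12a1 and Col14a1 had low start-site densities between 17.6 and 24.4 in every library, and their groups overlapped, with differences of 0.38 at Col12a1 and 0.49 at Col14a1 in tags per peak.

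Of the 23 shared peaks over matrix start sites, 6 were higher in both detrained libraries (Col1a1, Col1a2, Col6a1, Col15a1, Fbn1 and Lama4), 3 were lower (Col5a1, Col6a3 and Col6a6) and 14 overlapped. The differences of the 23 ran from -0.26 to 0.45, with a median of 0.02 on the log2 scale. In tags per peak they ran from -0.36 to 0.52, with a median of 0.03, and the sign turned at 9 of the 23. Of these 9, Col15a1, Lama4, Col5a1 and Col6a6 were among the peaks whose groups did not overlap, and Col5a2, Col6a2, Fn1, Lama2 and Lamc1 among those whose groups did. Over all shared peaks, 21.3% were higher in both detrained libraries and 27.2% were lower.

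**Figure D2:**
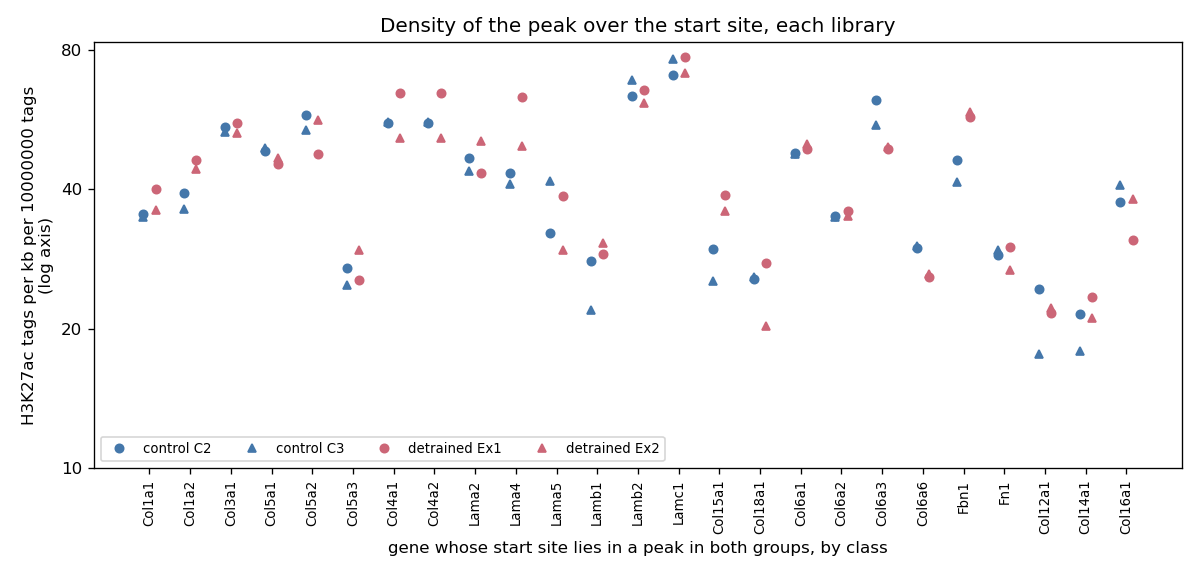
H3K27ac tags per kb per 10000000 tags (vertical axis, log scale) in the peak over each start site, for the 25 matrix genes whose start lay in a peak in both groups. Each symbol is 1 library; Col4a1 and Col4a2 share 1 peak, and Fbn1, Lama4 and Col15a1 show both detrained libraries above both control libraries, a direction that turned in tags per peak at Lama4 and Col15a1.

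Whether the members stood at a different level in the detrained group than in the control group was examined at shared peaks. No group that ran without rest was among the samples, so running and rest cannot be told apart. A shared peak was a control peak and a detrained peak with no other partner, each covered by the other over 50% of its length or more. There were 133 among members and 26432 in all. Libraries of the groups did not overlap at 60 of the 133. Both detrained libraries were higher at 33 (24.8%) and lower at 27 (20.3%), against 21.3% and 27.2% of all shared peaks. Counted per peak, 49 were higher (36.8%) and 29 lower (21.8%), against 24.7% and 28.8% of all. The median difference was 0.05 on the log2 scale over the 133, with 76 positive and 57 negative, against -0.03 over all shared peaks. Without C3 the medians were 0.01 over members and 0.01 over all shared peaks. The median log2 level over these peaks was 4.98 and 4.94 in the control libraries and 4.98 and 4.91 in the detrained libraries. The median size of a difference between groups was 0.16, and that between the libraries of 1 group was 0.12 in the control group and 0.14 in the detrained group. These sizes are not on 1 scale, since the first sets means against means and the others single libraries. The split within a group also rests on regularized log2 values, which can draw the libraries of a group together. Counts of groups that did not overlap and the SDs share this limit. No test was made, since the tables were normalized separately and an exact two-sided permutation test of 2 libraries against 2 cannot give a p below 0.33.

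**Figure D3:**
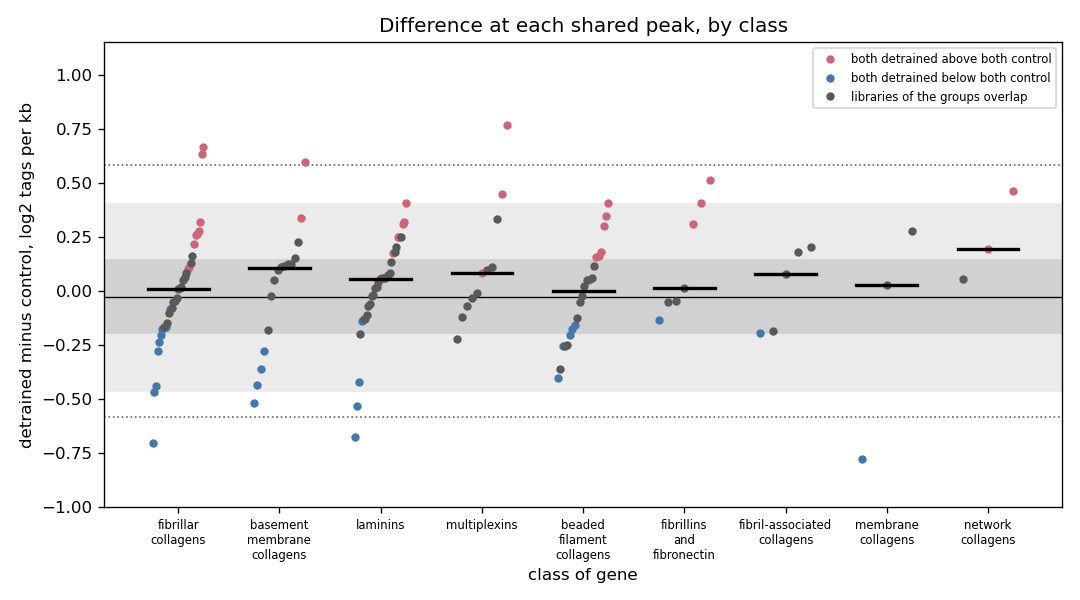
Detrained minus control difference in log2 tags per kb (vertical axis) at each shared member peak of a matrix gene, by class (horizontal axis), coloured by whether the libraries of the groups overlapped, with bars for class medians. Grey bands hold the central 50% and 90% of all 26432 shared peaks, the thin line their median and the dotted lines 1.5-fold; 7 points lie past the dotted lines.

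Members that were at least 1.5-fold apart with no overlap of the groups numbered 4 higher and 3 lower, against 1.1% of all shared peaks higher and 2.06% lower. Counted per peak rather than per kb, they numbered 14 higher and 2 lower, against 5.51% and 5.08%, and without Ex1 they numbered 4 higher and 7 lower. None was 2-fold apart (0.0151% of all shared peaks were higher and 0.0605% lower). None of the 7 pairs of peaks covered at least 80% of each other, and at that overlap 0 of 71 shared member peaks passed.

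The largest increase was in a Col18a1 intron, at -7.76 kb from the nearest start, where density was 13.1 and 15.9 in the control libraries and 26.8 and 22.4 in the detrained libraries. The log2 means were 3.85 ± 0.20 in the control group and 4.62 ± 0.18 in the detrained group (SD, n = 2), a 1.70-fold difference, and tags per peak went the same way, by 1.11 on the log2 scale. This is the Col18a1 peak whose central sequence, with 1 TGANTCA match, is printed above. The Col3a1 peak at -126 kb stood at 17.4, 11.5, 21.2 and 23.8 (1.59-fold), or 0.28 in log2 tags per peak, with the control libraries further apart than the detrained ones. The peak at -141 kb from the Col4a2 start, in no protein-coding gene, was the strongest of the 7, at 51.5, 65.2, 91.6 and 83.8 (1.51-fold), or 0.12 in log2 tags per peak. In a Col27a1 intron the values were 15.7, 17.7, 25.5 and 26.2 (1.55-fold), but the detrained peak was 500 bp long against 990 bp, and in tags per peak the direction turned (-0.35). Col27a1 encodes a fibrillar collagen of cartilage and other tissues.

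The largest decrease was in an intron of Col13a1, a membrane collagen found at nerve and muscle contacts, 80.8 kb from its start. Density was 30.3 and 32.5 in the control libraries and 18.8 and 17.9 in the detrained libraries, with log2 means of 4.97 ± 0.071 and 4.19 ± 0.051 (SD, n = 2). The difference was -0.78, or -0.54 in tags per peak. A Col5a1 intron peak 14.8 kb from the start stood at 41.8, 42.8, 25.8 and 26.0, a difference of -0.71 per kb and -0.21 in tags per peak, with the libraries of each group closely together. A Lamc1 intron peak 9.57 kb from the start stood at 24.98, 31.3, 20.7 and 14.8, a difference of -0.67, or -0.41 in tags per peak.

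Peak length differed between tables at many of these sites and bears on density. Of the 133 shared member peaks, 69 were longer in the detrained table, and the sign of the difference was the same per kb and per peak at 76. Of the 33 higher in both detrained libraries, 21 were also higher in tags per peak, and of the 27 lower ones, 13 were also lower. At Col5a1, 5 of 8 shared peaks were lower in both detrained libraries and 0 were higher, against 21.3% higher and 27.2% lower over all shared peaks, and all 8 were longer in the detrained table. Its median difference was -0.14 per kb and 0.15 in tags per peak, where 7 of the 8 were positive. At Fbn1, 3 of 6 were higher and 1 lower, but 2 of the 3 turned in tags per peak. At Col1a2, 3 of 7 were higher and 1 lower, and 1 of the 3 and the lower one turned. At the collagen VI gene Col6a3 they were 2 and 2 of 8, and both higher peaks and 1 lower peak turned.

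Class medians ran from 0.00 to 0.19 per kb, and they differed in tags per peak. Over all shared peaks the median was -0.03, with 21.3% higher in both detrained libraries and 27.2% lower, and in tags per peak it was -0.02, with 47.1% positive. The fibrillar collagens had a median difference of 0.01 over 33 shared peaks, with 9 higher (27.3%) and 9 lower (27.3%). Their median was 0.20 in tags per peak, with 26 of 33 positive, and 24 of the 33 peaks were longer in the detrained table. The laminins stood at 0.06 over 32 (7 or 21.9% higher, 5 or 15.6% lower), the collagen IV genes at 0.11 over 16 (2 or 12.5% higher, 4 or 25% lower) and the beaded filament collagens at 0.00 over 22 (7 or 31.8% higher, 5 or 22.7% lower). The laminin median turned to -0.07 in tags per peak, with 13 of 32 positive, while the collagen IV genes stood at 0.12 and the beaded filament collagens at 0.05. The multiplexins Col15a1 and Col18a1 stood at 0.09 over 11 (0.04 in tags per peak), with 3 higher and 0 lower. The network collagens had 3 shared peaks, all named Col8a1, with a median of 0.19 (0.53 in tags per peak), 2 of them higher and 0 lower. The membrane collagens had 3, all named Col13a1, with a median of 0.03 that turned to -0.52 in tags per peak, 0 higher and 1 lower. The fibril-associated collagens stood at 0.08 over 5 (0.38 in tags per peak), and the fibrillins and fibronectin at 0.01 over 7 (0.08).

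Peaks without any partner in the other table were counted next. No detrained peak overlapped 67 control member peaks (26.1%, against 27.9% of all control peaks), and no control peak overlapped 42 detrained ones (18.5%, against 18% of all). For the detrained peaks the likeness to all peaks rested on the setting. With 50% of a peak needing cover, 79 of 227 had no partner (34.8%, against 27.2% of all). When peaks under 30 pooled tags were dropped from both tables, so that weaker partners no longer counted, none was found for 36 of 157 (22.9%, against 12.5%). For the control peaks the shares were 33.5% against 34.4% and 16.2% against 13.2%. Peaks without a partner were mostly weak, with a median of 14.9 pooled tags per 10000000 in the control table against 58.7 for the overlapping member peaks, and 17.5 against 70.7 in the detrained table. Their highest value was 129 pooled tags in the control table and 116.6 in the detrained table. A Col5a2 intron peak of the control table held 53.6 pooled tags. In the detrained table the strongest lay at -21.0 kb from the Col1a1 start, chr11:94912328-94918215 (19.9 tags per kb in Ex1 and 19.8 in Ex2), followed by a Col5a2 peak at -96.7 kb (67.0) and a Col22a1 intron peak (51.4).

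Tags summed over the peaks of a gene moved with what was called. The Col1a1 sum was 356.2 pooled tags per 10000000 in the control group over 12.6 kb of peaks and 574.0 in the detrained group over 22.2 kb, while the mean density was 28.2 and 25.9 per kb. The 4 short control peaks inside Col1a1 were listed as 2 longer peaks in the detrained table. The Col8a1 sum was 116.5 and 257.8 at 22.5 and 24.8 per kb, and the Lama2 sum was 383.0 and 277.0 at 37.1 and 37.2 per kb. Over all members the sums were 21439, 21368, 22670 and 21574 (per 10000000 tags of each library). The groups did not overlap, and the pooled sum was 3.26% higher in the detrained group, over 645.8 kb of peaks against 620.6 kb, while the sum over all peaks differed by -3.49%. The difference over members was 0.79% without Ex1 and 5.92% without Ex2.

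**Figure D4:**
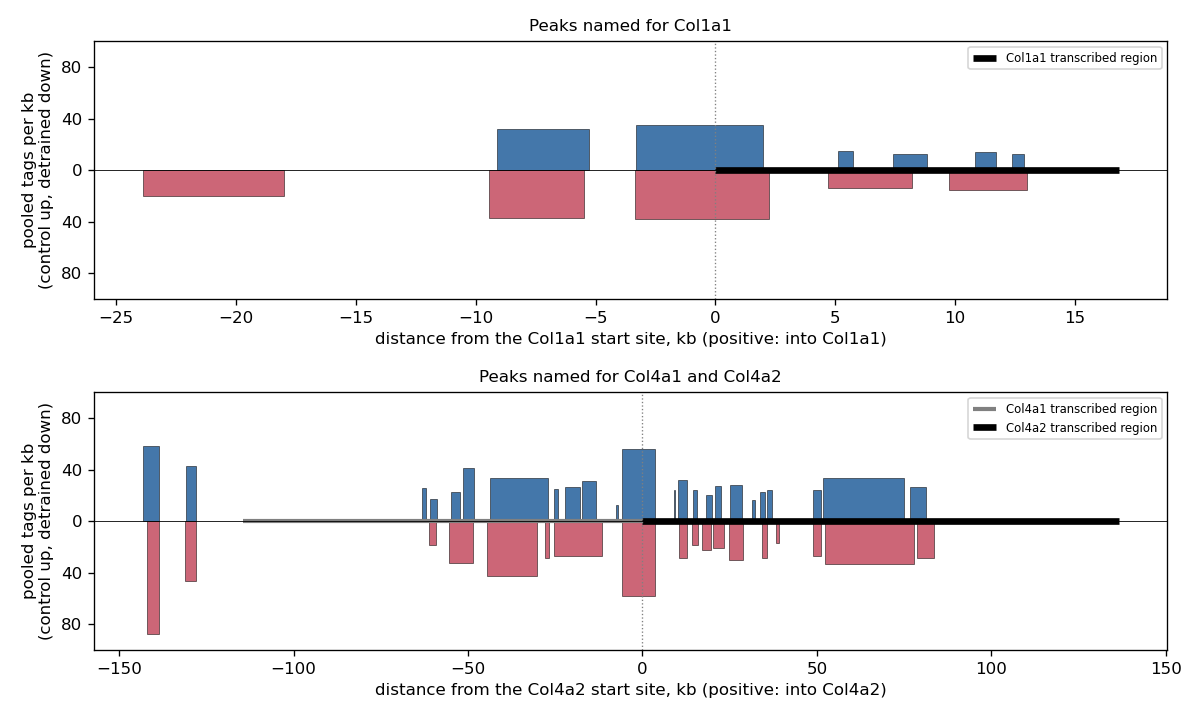
Peaks named for Col1a1 (top) and for Col4a1 and Col4a2 (bottom) by distance in kb from the Col1a1 or Col4a2 start site (horizontal axis), with bar width the peak's length and bar height its pooled tags per kb, control upward and detrained downward. The Col1a1 gene holds 4 control peaks and 2 detrained peaks beyond the start, a detrained peak lies alone near -21.0 kb, and the Col4a1 and Col4a2 genes run left and right from a shared start.

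At the Col4a1 and Col4a2 locus the libraries of the detrained group stood apart from each other. Ex1 was above Ex2 at 13 of 13 shared peaks, by 0.06 to 0.76 on the log2 scale with a median of 0.28, while C2 minus C3 ran from -0.34 to 0.29. At the broad peak in Col4a2, density was 32.8, 33.8, 38.4 and 28.0. Taken alone, Ex1 differed from the control mean by a median of 0.24 over the 13 peaks and Ex2 by -0.11. Ex1 was above both control libraries at 11 of the 13 and Ex2 at 2. At Lama4, Ex1 was above Ex2 at 5 of 5 shared peaks. Over the other 120 member peaks Ex1 was above Ex2 at 59, with a median gap of -0.01, and over all shared peaks at 62.2%.

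Among the marker lists, the endothelial genes moved with that gap. Ex1 was above Ex2 at all 12 shared endothelial marker peaks, with a median gap of 0.45, and C2 minus C3 had a median of -0.23. All 4 endothelial genes had peaks in both tables, 31 in each, at 29.1 pooled tags per kb in the control group and 28.9 in the detrained group. The fibroblast list had an Ex1 minus Ex2 median of -0.12 over 11 peaks, and the muscle fibre list 0.09 over 10, with C2 minus C3 at -0.30. The part of these markers in the collagen IV and Lama4 values was not tested.

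**Figure D5:**
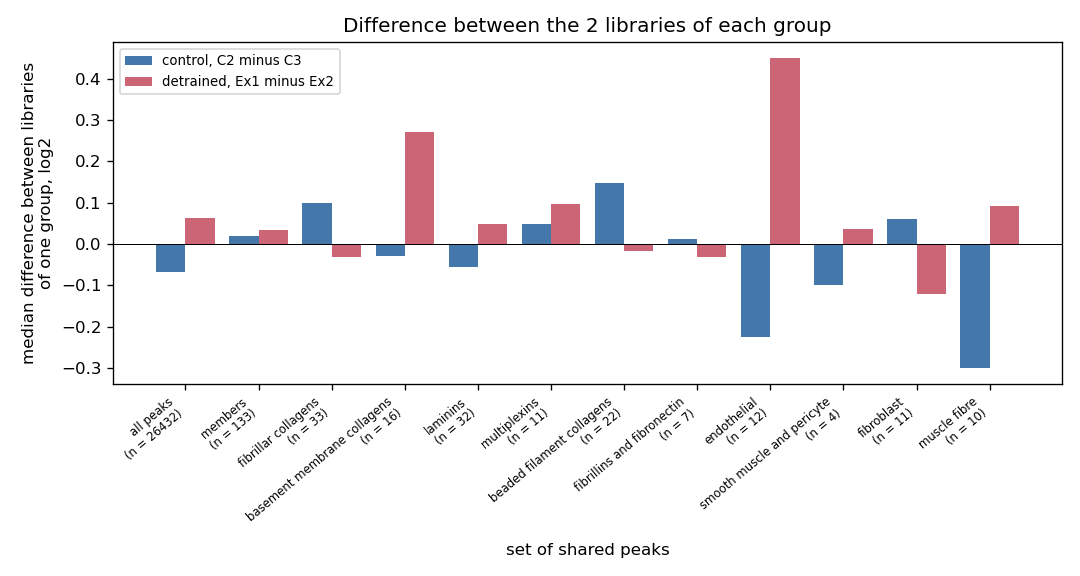
Median log2 difference between the libraries of 1 group (vertical axis), C2 minus C3 for control and Ex1 minus Ex2 for detrained, over the shared peaks of each set (horizontal axis, n in brackets). Among the sets drawn, the highest bars above 0 are Ex1 minus Ex2 at endothelial marker genes (0.45) and at the basement membrane collagens (0.27), and the lowest bar is C2 minus C3 at muscle fibre genes (-0.30); classes with 5 shared peaks or fewer are drawn only for smooth muscle and pericyte genes, and the membrane collagens, not drawn, stood at -0.44 over 3 peaks (C2 minus C3).

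Other matrix genes, 57 in a list of basement membrane linkers, collagen-processing enzymes, proteoglycans, glycoproteins, receptors and proteases, had 264 control and 214 detrained peaks. At their 134 shared peaks the median difference was 0.01, with 29 higher (21.6%) and 35 lower (26.1%), against 21.3% and 27.2% of all shared peaks. Past 1.5-fold were 1 higher and 4 lower, or 0.75% and 2.99%, against 1.1% and 2.06%. The matrix proteases and their inhibitors had a median of -0.15 over 15 shared peaks, with 0 higher and 6 lower (40%). The glycoproteins stood at 0.05 over 25 (8 or 32% higher, 3 or 12% lower) and the basement membrane linkers at -0.09 over 31 (5 or 16.1% higher, 10 or 32.3% lower). The collagen-processing enzymes stood at 0.00 over 28, with 8 (28.6%) in each direction. The medians in tags per peak were 0.05 over all 134, -0.05 at the proteases and inhibitors (4 higher, 4 lower), 0.06 at the glycoproteins, 0.00 at the linkers and 0.10 at the processing enzymes.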

How the data were processed

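Quadriceps chromatin was profiled for H3K27ac in 2 control and 2 detrained libraries, with 1 input per group. Reads had been aligned by the authors to mm10 using Bowtie (1.2 in the submitters' processing notes), with 1 tag kept per position, and histone-style peaks had been called with HOMER on the pooled libraries of a group over its input. Each deposited table gives a pooled signal per peak, the tags of both libraries per 10000000, and log2 tags per library, which the authors had regularized with DESeq2 inside that table, so log2 values were not compared across tables. The authors' own comparison with input (log2 fold, p-value and adjusted p-value) was not used.

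Tags of a library were estimated by dividing a peak's pooled tags according to library total and deposited log2 value. Density was (tags + 0.5) per kb of peak per 10000000 tags, taken as log2, and a difference is the detrained minus the control mean. Peaks were shared when each was the other's only partner at 50% cover. They were counted as higher or lower when the detrained values both exceeded, or both fell under, the control values, with or without 1.5-fold. Library totals of 20805019 to 22400894 tags set the precision. Columns C2 and C3 were assigned to the control group only, since the labels number those samples otherwise. Pairing, levels and counts were run on simulated data with the same peak coordinates in both groups. Those data do not test differing peak boundaries or the use of regularized values.

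Genes named were the fibrillar, basement membrane, microfibril, fibril-associated and membrane genes set out by class, the 5 genes with most peaks, the 5 strongest peaks per table, the 3 largest increases and decreases, and the 3 strongest peaks in 1 table only; other genes named with values were chosen after their values were seen. One gene that this rule takes is not reported here by name; it stays in the counts over members. Members and lists were chosen with earlier results of these data known. Start sites and motif matches used RefSeq on GRCm38.p6, the assembly behind mm10. Alternatives covered peak length, pseudocount, scaling, overlap, weak peaks and each library left out. Python 3.11.15, numpy 2.4.6 and pandas 2.3.3 were used.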

Additional observations from a re-analysis of the deposited data

How the results depend on the processing

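Over the 133 shared member peaks the mean difference was 0.02 and the median 0.05 (log2, detrained minus control). In tags per peak they were 0.095 and 0.096, and with library totals taken from the listed peaks 0.070 and 0.099, where the median over all shared peaks moved from -0.03 to 0.02. Leaving out 1 library gave a mean of -0.01 to 0.05 and a median of 0.01 to 0.05, a turn of direction only for the mean without Ex1. Without C3, the member mean of 0.0050 and median of 0.0093 stood beside 0.0066 and 0.0073 over all shared peaks. Restricted to 104 peaks of at least 30 pooled tags per 10000000, the mean was -0.0024 and the median 0.02. The 7 peaks counted as 1.5-fold apart (5.26%, against 3.16% of all shared peaks) became 16 in tags per peak (14 higher, 2 lower; 12% against 10.6%), 0 at an overlap of 80% (against 0.91%), 11 with any one-to-one overlap (7.53% against 4.68%) and 3 at 30 pooled tags or more (2.88% against 2.68%). Leaving out 1 library gave 6 to 11, with 11 (4 higher, 7 lower; 8.27% against 4.46%) without Ex1. The Col27a1 peak turned to -0.35 in tags per peak, the only reversal among the 7 peaks. With 50% of a peak needing cover, 79 detrained member peaks (of 227) had no partner in place of 42, or 34.8% against 27.2% of all. At 30 pooled tags or more the order of the peak counts turned, with 148 control and 157 detrained member peaks. Of these, 24 (16.2%, against 13.2% of all) and 36 (22.9%, against 12.5%) had no partner of at least 30 pooled tags. Weaker listed partners did not count here. The summed tags over members were 0.79% to 5.92% higher when 1 library was left out, an alternative chosen after seeing the data, with the lowest value without Ex1 and the highest without Ex2, while the sum over all peaks differed by -7.34% to 0.57%. The other alternatives run (a pseudocount of 5 tags, centring on all shared peaks, promoters by distance, shared peaks only for summed tags) moved these values by less than the spread between libraries or 1.5 times. No paired analysis was possible because C2 and C3 carry numbers that differ from those of the labels, and no test was made. At 24 start-site peaks, 23 of 250 alternative values moved by more than the spread of the peak's libraries. Tags per peak alone moved 14 of the 24. Depth limits the weak peaks, where estimated tags rest on shrunken values.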
